A study of Rattus norvegicus with 6 samples.

Results

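Keratins are the intermediate filament proteins of epithelial cells, and the genes described here are the simple epithelial keratins with neighbouring type II keratins, read in INS-1 cells that carry either of 2 menin mutants. The genes were Krt7, Krt8, Krt18, Krt19, Krt20, Krt23, Krt80 and Krt5, taken by exact symbol as 8 of the 35362 gene rows of the deposited table. They were chosen by their measured RPKM in the S487D and S487A libraries, in earlier work on the same values, so their difference between these groups is a description, with no test. The chromosome 7 rows (Krt5, Krt7, Krt8, Krt18 and Krt80) are set beside the chromosome 10 rows (Krt19, Krt20 and Krt23), and Krt18 is also taken by itself.

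INS-1 cells come from a rat insulinoma, still make insulin and serve as a beta cell model. The first group, S487D, is 3 libraries of INS-1 cells made to overexpress Flag-tagged menin with an aspartate in place of the serine, a change often used to imitate phosphorylation. The second, S487A, is 3 libraries of INS-1 cells that overexpress Flag-tagged menin with an alanine at that position, which takes no phosphate. Both populations were made with retroviruses derived from the pMX-puro-Flag-Menin vector, and the labels name no deletion of the cells' own menin gene. For both groups the labels give cells of passages 75 to 80. Cells with wild-type menin and untransduced cells were not analysed here. The labels name no separate cultures or transductions behind the libraries, so p-values measure only the spread among these samples, and that spread may be technical. The mutant and the cell population that carries it cannot be told apart.

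A keratin filament is built from pairs of a type I (acidic) and a type II (basic) chain, and a chain left without a partner is normally degraded. Krt8 (type II) with Krt18 (type I) is the founding pair of simple epithelia and the main keratin pair of pancreatic endocrine and acinar cells, while Krt7 and Krt19 are added in duct cells. In mammals the type II genes lie in one cluster and the type I genes in another on a different chromosome, except for Krt18, which lies beside Krt8 at the edge of the type II cluster.

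Levels are in RPKM, read number scaled to gene length and to the reads assigned to genes in the library, so they can be compared between genes and not only between libraries. Each library held 9444801 to 10867549 assigned reads, so that for a 1 kb gene a single read was worth 0.092 to 0.106 RPKM. Men1, the gene of menin, was read at 113, 103 and 119 RPKM in S487D and at 71.2, 76.7 and 75.0 RPKM in S487A. The groups did not overlap, and an exact permutation test, two-sided, gave p = 0.1 for the log2 difference of 0.58, higher in 3 of 3 S487D libraries; this is the smallest p that 3 against 3 libraries allow. The species of the transgene is not given in the labels, so whether its reads fall in this row is not known. Of 9 beta cell markers, 8 were in the table and all 8 reached 1 RPKM, with sums of 17522 to 18700 RPKM in S487D and 5216 to 5763 RPKM in S487A. Most of each sum was Ins1, at 16700 ± 551 RPKM in S487D and 4683 ± 292 RPKM in S487A. Of the other markers, Nkx6-1 went the other way, at 4.42 ± 0.434 RPKM in S487D and 10.1 ± 0.531 RPKM in S487A (limma adjusted p = 5.67e-06), and Ucn3 averaged 0.724 ± 0.244 RPKM in S487D and 1.64 ± 0.926 RPKM in S487A, with overlapping groups and no call. Of 6 duct markers, only Muc1 reached 1 RPKM in any library and Spp1 was at 0 in all 6, with sums of 1.25 to 1.73 RPKM in S487D and 2.37 to 2.67 RPKM in S487A. Acinar markers summed to 1.43 to 1.54 RPKM in S487D and 0.246 to 0.626 RPKM in S487A, with Cpa1, Cpb1 and Prss1 at 0. Most of each acinar sum was Ctrb1, at 1.42 ± 0.0857 RPKM in S487D and 0.401 ± 0.169 RPKM in S487A. Ctrb1 was called as risen, but it had 12, 10 and 11 reads in S487D and 3, 5 and 2 reads in S487A. It reached the level for testing only through S487D. Mesenchymal markers summed to at most 1.03 RPKM in S487D and 1.20 RPKM in S487A. Most of each mesenchymal sum was Pdgfra, at 0.894 ± 0.0737 RPKM in S487D and 1.02 ± 0.153 RPKM in S487A, with overlapping groups. Endothelial markers summed to at most 0.143 RPKM in S487D and 0.261 RPKM in S487A, and leukocyte markers to at most 0.958 and 1.07 RPKM. Col3a1, Pdgfrb, Cdh5 and Ptprc were at 0. Since these are bulk samples, fewer cells of a type and less RNA per cell cannot be told apart.

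Krt8 was the most abundant keratin, and it was lower in S487D. Its row covers 1666 bases of exon on the minus strand of chr7:143596511-143603745 (rn6, as are all positions of rows below). Its level was 618, 607 and 610 RPKM in S487D and 1212, 1280 and 1310 RPKM in S487A. Every S487D library was below every S487A library, and the S487D libraries lay close together (612 ± 5.74 RPKM, SD, n = 3, against 1267 ± 50.0 RPKM in S487A, SD, n = 3). On the log2(RPKM + 1) scale the difference, S487D minus S487A, was -1.05 (SE 0.041), a ratio of mean levels of 0.482. Among all rows ordered by RPKM, Krt8 stood between places 75 and 81 in the S487D libraries and between places 15 and 17 in the S487A libraries.

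Krt18, the type I partner of Krt8, was lower in S487D by the same log2 amount. Its row covers 1369 bases on the plus strand of chr7:143629455-143633131, 25.7 kb from the end of Krt8. It was read at 41.1, 40.04 and 40.7 RPKM in S487D and at 80.0, 87.4 and 89.1 RPKM in S487A. The groups did not overlap, and the means were 40.6 ± 0.537 RPKM in S487D and 85.5 ± 4.87 RPKM in S487A (SD, n = 3 each). The log2 difference was -1.05 (SE 0.048). Copies of Krt18 complicate its level. By NCBI gene number, the table holds 7 rows for copies of Krt18, of which Krt18l1 is labelled protein coding, and 1 for a copy of Krt8. Where near-identical, such copies can take reads from the parent row or give reads to it, but their sequences were not compared. Of these rows, only Krt18-ps1 on chromosome 10 was read above 1 read in any library, at 4.01, 4.77 and 4.13 RPKM in S487D and 4.80, 5.16 and 4.21 RPKM in S487A, with overlapping groups. The span of the Krt18-ps1 row overlaps that of another row, so its reads (58, 64 and 55 in S487D and 68, 79 and 61 in S487A) may not all be its own. Counting them as its own, the Krt18 row held 90.6, 89.1 and 90.5% of the reads of Krt18 and its copies in S487D and 94.1, 94.3 and 95.3% in S487A. How the authors' counting divided reads between Krt18 and these copies is not given in the sources used here, so the Krt18 level carries that uncertainty.

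The promoters of this divergently oriented pair are shown because both genes differed by the same amount between the groups. Each sequence is from RefSeq on the GRCr8 assembly, runs from 250 bases before to 50 bases after the annotated start on the gene's own strand, and is written 5′ to 3′ with motif matches in capitals. Krt8 is the minus strand of chr7:135010290-135010589 and Krt18 the plus strand of chr7:135035918-135036217 in GRCr8. The 4 motifs searched, on both strands, were the TATA box (TATAAA), the GC box (GGGCGG), the AP-1 site (TGANTCA) and the CCAAT box (CCAAT).
Krt8: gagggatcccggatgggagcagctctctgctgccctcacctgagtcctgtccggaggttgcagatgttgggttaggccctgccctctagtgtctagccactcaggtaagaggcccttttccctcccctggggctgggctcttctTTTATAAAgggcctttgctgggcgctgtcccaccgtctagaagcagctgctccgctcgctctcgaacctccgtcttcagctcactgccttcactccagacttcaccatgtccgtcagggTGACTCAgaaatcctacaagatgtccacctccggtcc
Krt18: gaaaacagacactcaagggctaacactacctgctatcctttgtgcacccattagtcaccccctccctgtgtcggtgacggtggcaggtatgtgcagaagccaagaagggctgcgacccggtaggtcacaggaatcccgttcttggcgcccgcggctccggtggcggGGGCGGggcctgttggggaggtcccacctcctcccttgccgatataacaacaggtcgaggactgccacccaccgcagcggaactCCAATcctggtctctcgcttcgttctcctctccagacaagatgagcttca
The Krt8 window held TATAAA 104 bases before the start, and the overlapping letters TTTATA match the same motif on the opposite strand, so the 8 capitals there are a single run. The annotated start of Krt8 falls on the letters atg, which read as a start codon, and the distance of TATAAA is counted from there. A TGANTCA match, read as TGACTCA, began at base 14 after this start. Those letters may thus be coding sequence and not promoter. The Krt18 window held neither of these motifs, and instead GGGCGG 84 bases before the start and CCAAT at the first base after it. No motif was shared by the windows of the pair, but the windows are not placed alike. After the annotated start of Krt18, the letters atg come only near the end of the window. Distances and matches are therefore not compared between these genes. Of 33469 rat promoters of this length, 14.2% held TATAAA, 33.1% GGGCGG, 7.33% TGANTCA and 37.5% CCAAT, and a match describes letters, not binding. GC content was 59.0% in the Krt8 window and 60.3% in the Krt18 window, against 52.7% over all promoters. Promoters were matched for 5 of the 8 genes, and those of Krt5, Krt20 and Krt23 are not printed because their mRNAs were at or near 0.

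Krt7, a type II keratin of duct, glandular and other simple epithelia, was lower in S487D by a larger log2 amount than Krt8. Its row covers 2095 bases on the plus strand of chr7:143059734-143075907. It was read at 83.3, 80.5 and 84.3 RPKM in S487D and at 207, 219 and 226 RPKM in S487A. All S487D libraries were below all S487A libraries, with means of 82.7 ± 2.00 RPKM in S487D and 217 ± 9.46 RPKM in S487A (SD, n = 3 each). The log2 difference was -1.38 (SE 0.043), and the mean level in S487A was 2.63 times that in S487D.

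Krt80, a type II keratin found in many epithelia and linked to cell junctions during differentiation, had the largest difference of the 8 genes. Its row covers 1359 bases on the minus strand of chr7:142995715-143015932, 43.8 kb from Krt7. It was read at 2.80, 2.63 and 2.34 RPKM in S487D and at 60.7, 62.1 and 68.4 RPKM in S487A. These values stand for 39, 34 and 30 reads in S487D and 828, 917 and 956 reads in S487A. The S487D libraries were all low and the S487A libraries all high, with a wide gap between the groups. Means were 2.59 ± 0.233 RPKM in S487D and 63.7 ± 4.11 RPKM in S487A (SD, n = 3 each), and the ratio of S487A to S487D means was 24.6. The log2 difference on the log2(RPKM + 1) scale was -4.17 (SE 0.068); it was -4.57 with a pseudocount of 0.1, since adding 1 pulls in a level this low. In rank, Krt80 stood between places 10261 and 10629 in the S487D libraries and between places 1303 and 1437 in the S487A libraries.

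Krt5, the type II keratin of basal cells in stratified epithelia (chr7:143320142-143324536, minus strand), was not detectable at this depth in either group. It had 1, 0 and 0 reads in S487D and 0, 0 and 1 read in S487A. The floor of 3 reads corresponds to 0.207 to 0.238 RPKM for its length of 1332 bases, so a level under that would not be seen in a library. Krt5 lies 244 kb from Krt7 and 272 kb from Krt8, between the keratins that were read.

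**Figure D1:**
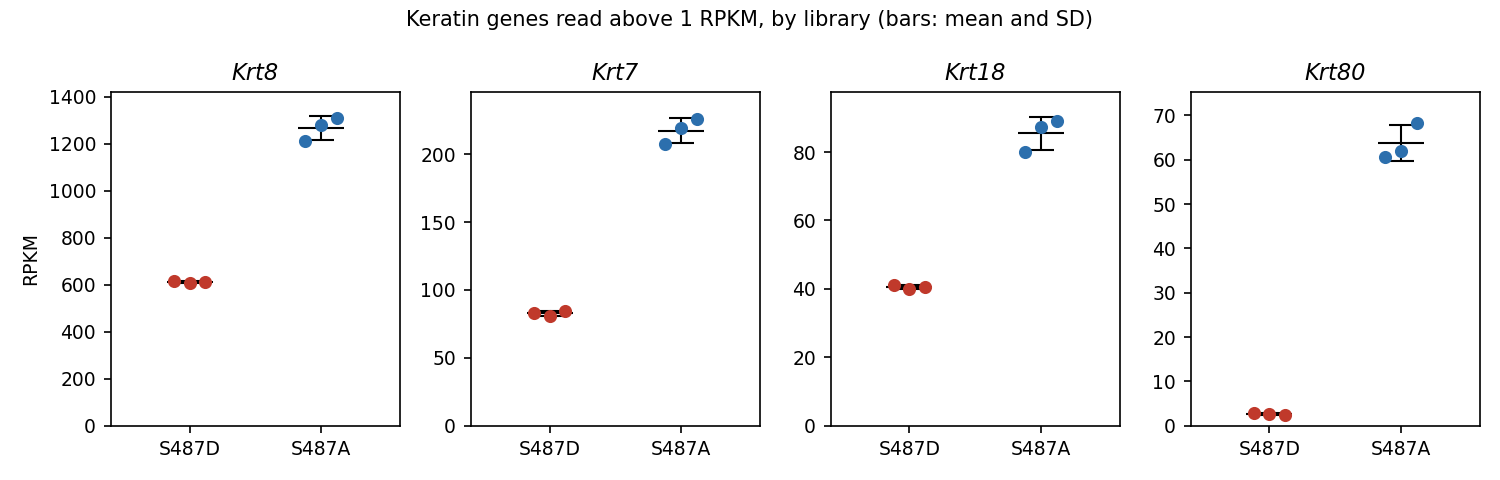
Level of Krt8, Krt7, Krt18 and Krt80 in RPKM (linear axis from 0, one panel a gene) in each library, S487D at the left and S487A at the right; points are libraries and bars are group means with SD. For each of these genes every S487D point lies below every S487A point, and the widest gap is that of Krt80, with 2.34 to 2.80 RPKM in S487D and 60.7 to 68.4 RPKM in S487A.

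The chromosome 10 keratins were read near or at 0 in both groups. Krt19, the smallest type I keratin and a marker of pancreatic duct cells (chr10:88055843-88060560, minus strand, length 1380), had 5, 1 and 2 reads in S487D and 7, 5 and 6 reads in S487A. These are 0.353, 0.0761 and 0.153 RPKM in S487D and 0.505, 0.333 and 0.423 RPKM in S487A. The groups overlapped, because S487D library 1 was above S487A library 2. Means were 0.194 ± 0.143 RPKM in S487D and 0.421 ± 0.0860 RPKM in S487A (SD, n = 3 each), and 2 of the S487D libraries were under the floor of 3 reads. Krt19 did not reach the level required for testing, and without S487D library 1 or without S487A library 2 its groups no longer overlapped.

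Krt20, a type I keratin of intestinal and urothelial cells (chr10:87342514-87351045, minus strand), had 2, 0 and 1 reads in S487D and 0 reads in each S487A library. All 6 values are under the floor of 3 reads, so no ratio is given. Krt23, a type I keratin whose role is less well known (chr10:87391623-87407634, minus strand), was at 0 in all 6 libraries, which allows up to 0.218 to 0.250 RPKM in a library. Of the 8 genes, 4 (Krt7, Krt8, Krt18 and Krt80) reached 1 RPKM in at least 3 libraries, and all 4 are on chromosome 7. These 4 were lower in S487D without overlap of the groups; of all 12527 genes tested, 54.6% had groups that did not overlap and 29.5% were lower in S487D without overlap, and nothing is read from that comparison because this contrast chose the members. Just inside that level of 1 RPKM was Krt80, with 2.34 RPKM in its lowest library, and just outside was Krt19, with 0.505 RPKM in its highest.

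**Figure D2:**
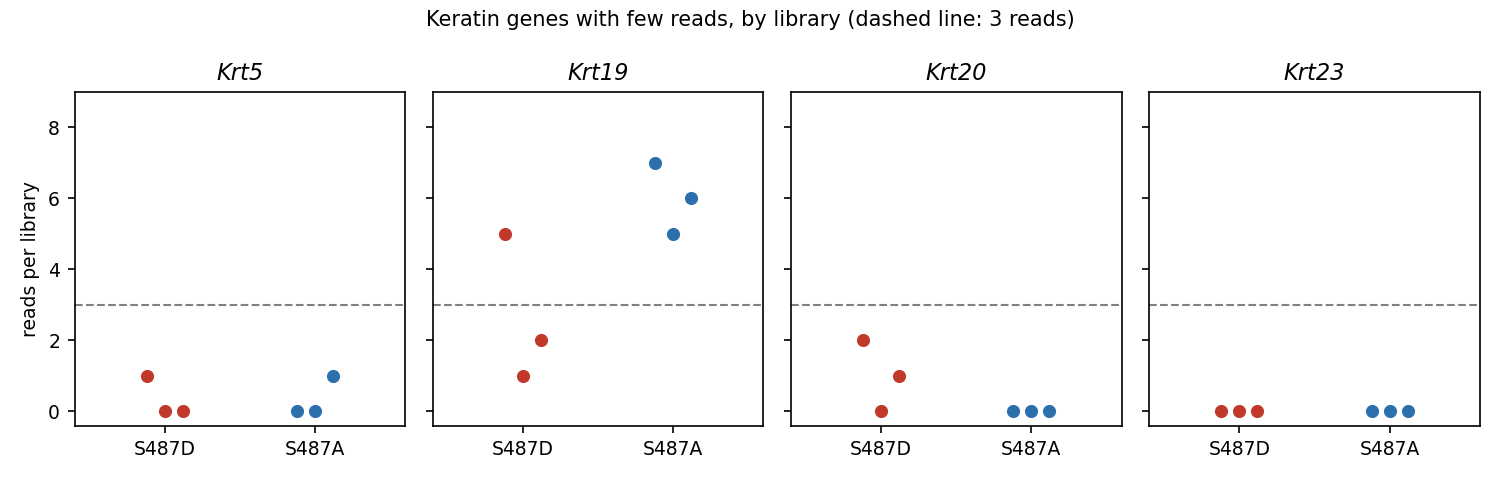
Reads of Krt5, Krt19, Krt20 and Krt23 in each library, one panel a gene, S487D at the left and S487A at the right, with the floor of 3 reads as a dashed line. Krt19 reaches 7 reads at most, in an S487A library, and the other 3 genes stay under the floor in all 6 libraries.

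The pairing of Krt8 with Krt18 can be followed within each library by the ratio of their RPKM values. The ratio of Krt8 to Krt18 was 15.0, 15.2 and 15.0 in S487D and 15.2, 14.6 and 14.7 in S487A. The groups overlapped, with means of 15.1 ± 0.0852 in S487D and 14.8 ± 0.284 in S487A (SD, n = 3 each). The pair's mRNA ratio thus overlapped between the groups while both of its members were lower in S487D. A ratio of mRNA levels is not a ratio of proteins, and the Krt18 copies bear on its size.

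Krt7 and Krt80 did not keep step with Krt8. The ratio of Krt7 to Krt8 was 0.135, 0.133 and 0.138 in S487D and 0.171, 0.171 and 0.172 in S487A, and the groups did not overlap. The ratio of Krt80 to Krt7 was 0.0336, 0.0326 and 0.0277 in S487D and 0.293, 0.284 and 0.303 in S487A, so the S487D libraries were far below the others. The summed type II level (Krt5, Krt7, Krt8 and Krt80) was 16.9, 17.2 and 17.0 times the summed type I level (Krt18, Krt19, Krt20 and Krt23) in S487D and 18.4, 17.8 and 17.9 times in S487A. In both groups the type II sum, most of it Krt8, exceeded the type I sum, and the ratio was lower in each S487D library than in any S487A library.

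**Figure D3:**
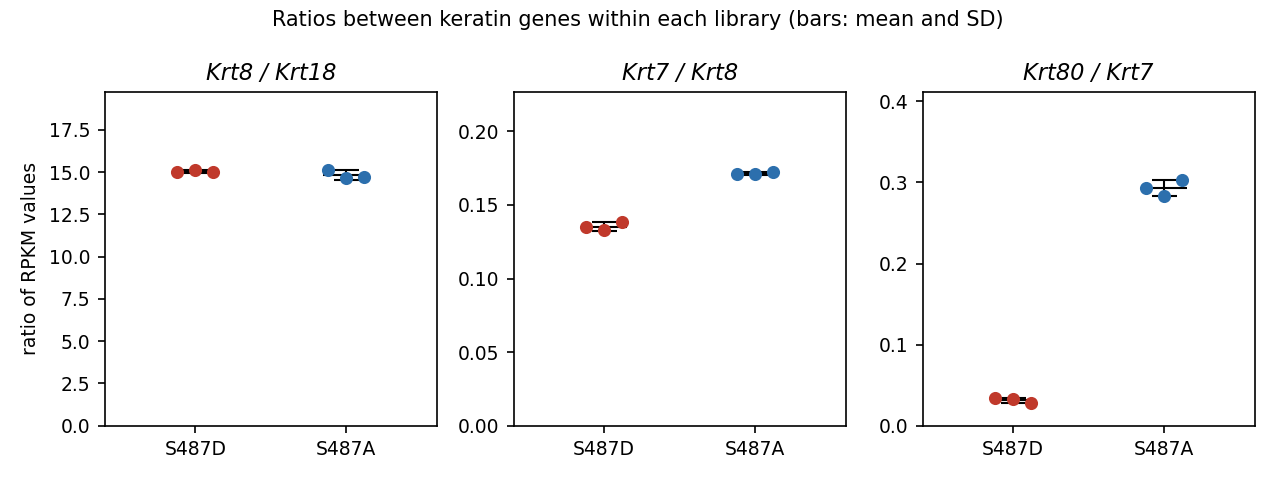
Ratios of RPKM values within each library, one panel a ratio, S487D at the left and S487A at the right; points are libraries and bars are group means with SD. The Krt8 to Krt18 ratio overlaps between the groups (means 15.1 in S487D and 14.8 in S487A), while Krt7 to Krt8 and Krt80 to Krt7 are lower in each S487D library than in any S487A library.

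In sum, the 8 genes reached 738 ± 7.84 RPKM in S487D and 1634 ± 67.8 RPKM in S487A (SD, n = 3 each). Reads of all 51 keratin rows made up 0.128, 0.125 and 0.127% of assigned reads in S487D and 0.266, 0.281 and 0.289% in S487A. Krt7, Krt8, Krt18 and Krt80 held 98.7 to 98.9% of these keratin reads in S487D and 99.4 to 99.5% in S487A. Krt8 alone held 80.2 to 80.8% of them in S487D and 75.6 to 75.9% in S487A. The S487D libraries thus had a smaller keratin pool in which Krt8 made up a larger share.

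The other 43 keratin rows, 19 on chromosome 7 and 24 on chromosome 10, were almost silent. Of these, 21 were at 0 in all 6 libraries, 8 reached 3 reads in some library, and only Krt10 reached 1 RPKM. Krt10, a type I keratin of differentiated epidermis, averaged 1.48 ± 0.130 RPKM in S487D and 1.37 ± 0.192 RPKM in S487A (SD, n = 3 each), with overlapping groups. In limma with Benjamini-Hochberg adjustment over the 12527 genes tested, its log2 difference of 0.07 had an adjusted p of 0.616. Krt10 was the only 1 of the 43 that was tested; its unadjusted p was above 0.05 and limma voom on reads recovered from RPKM did not call it, and the other 42 rows were too low to test. With no filter on low values, when 22 of the 43 were tested, Krt73 alone was called, with 1, 0 and 1 reads in S487D and 4, 5 and 2 reads in S487A (log2 difference -0.18, adjusted p = 0.0469), and under the other alternatives it was not tested; it was named after its values were seen. Between Krt7 and Krt8 lie 19 other keratin rows besides Krt5, and the highest value of any of them was 0.651 RPKM, in Krt1. The keratins that were read thus lie on either side of a stretch of keratin rows with few or no reads.

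Over the 6 libraries, Krt8 and Krt18 had nearly the same profile. Likeness was measured as the root mean square difference between log2(RPKM + 1) profiles, each centred on its own mean. For Krt8 and Krt18 it was 0.016, and none of the tested genes outside the 8 was nearer to Krt8. The nearest of those were Cacnb3, a calcium channel beta subunit that also lies on chromosome 7, at 140311140 to 140324902 (0.018), Bcam, a laminin-binding adhesion molecule (0.020), and Prnp, the prion protein gene (0.025). For Krt18 they were Bcam (0.025), Cacnb3 (0.026) and Tmem179 (0.030). Krt7 stood at 0.167 from Krt8 and Krt80 at 1.56. Of the tested genes outside the 8, 322 were nearer to Krt8 than Krt7 was, and 12514 were nearer than Krt80. Such a likeness over 6 libraries in 2 groups mostly reflects a like difference between the groups. For Krt19, with at most 7 reads a library, no such genes are given.

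The genes around the keratins on chromosome 7 were also lower in S487D as a group. Within 1 Mb of the span from Krt80 to Krt18, 75 rows of genes other than keratins were found and 40 were tested. Of these, 1 rose and 36 fell in S487D, and 3 were not called; of all 12527 genes tested, 44.4% were called, 20.1% as risen and 24.3% as fallen. Their median log2 difference was -0.54, against -0.01 over all genes, and 39 of the 40 were below 0. Among the 787 genes tested elsewhere on chromosome 7, 182 rose and 228 fell, with a median of -0.02. Genes not far outside the window are among these, Cacnb3 and Prph (both lower in S487D) included, so this count does not mark where the lowering ends. Of the 40 rows, 14 overlap another row, counted over the whole span from start to end with introns included. The library kit does not mark strand, so reads in any exon stretch shared by such rows cannot be told apart. How much exon they share was not measured. This window was drawn with the lowered stretch of chromosome 7 already known, so its count is a description.

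The 4 neighbours with the smallest p among those that fell were Smagp, Aaas, Slc4a8 and Eif4b. Smagp, a small transmembrane protein of cell contacts, was read at 8.59, 9.12 and 9.19 RPKM in S487D and 28.6, 29.3 and 29.1 RPKM in S487A (log2 difference -1.59, SE 0.049, limma adjusted p = 2.18e-08), and its row overlaps another. Aaas, which encodes a nuclear pore protein, was read at 22.1, 20.5 and 21.8 RPKM in S487D and 48.4, 49.0 and 47.4 RPKM in S487A (log2 difference -1.13, SE 0.045, limma adjusted p = 1.03e-07). Slc4a8, a sodium-driven bicarbonate transporter, averaged 6.64 ± 1.02 RPKM in S487D and 17.4 ± 0.266 RPKM in S487A (log2 difference -1.28). In these 3 genes each S487D library was below each S487A library. Eif4b, a translation initiation factor and the tested gene nearest to Krt18 on the far side, averaged 133 ± 4.59 RPKM in S487D and 199 ± 5.89 RPKM in S487A (log2 difference -0.57), and its row overlaps another. Nr4a1, an immediate early nuclear receptor and the nearest tested gene with a proper symbol beyond Krt80, was the 1 that rose, with 1.46 ± 0.138 RPKM in S487D and 0.801 ± 0.133 RPKM in S487A (log2 difference 0.45, limma adjusted p = 0.00612). It reached the level for testing only through S487D, so the filter itself rested on this difference.

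Set against this local level, the keratins differed among themselves. Less the median of the 40 neighbours, the log2 difference was -3.64 for Krt80, -0.85 for Krt7, -0.51 for Krt8 and -0.52 for Krt18. None of the 40 neighbours was lower than Krt80, 1 (Smagp) was lower than Krt7, and 4 were lower than Krt8 and 4 than Krt18. Krt8 and Krt18 thus lay in the lower part of the range of their neighbours, which ran from -1.59 to 0.45, and Krt80 lay far outside it. These ranks are on log2(RPKM + 1), which understates the differences of low neighbours. By ratio of means, S487D over S487A, Hoxc8 (0.300, named after its values were seen) was also below Krt7 (0.381). With a pseudocount of 0.1 the neighbours' median was -0.58. What part the shared shift of the neighbourhood has in the keratin differences was not tested.

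**Figure D4:**
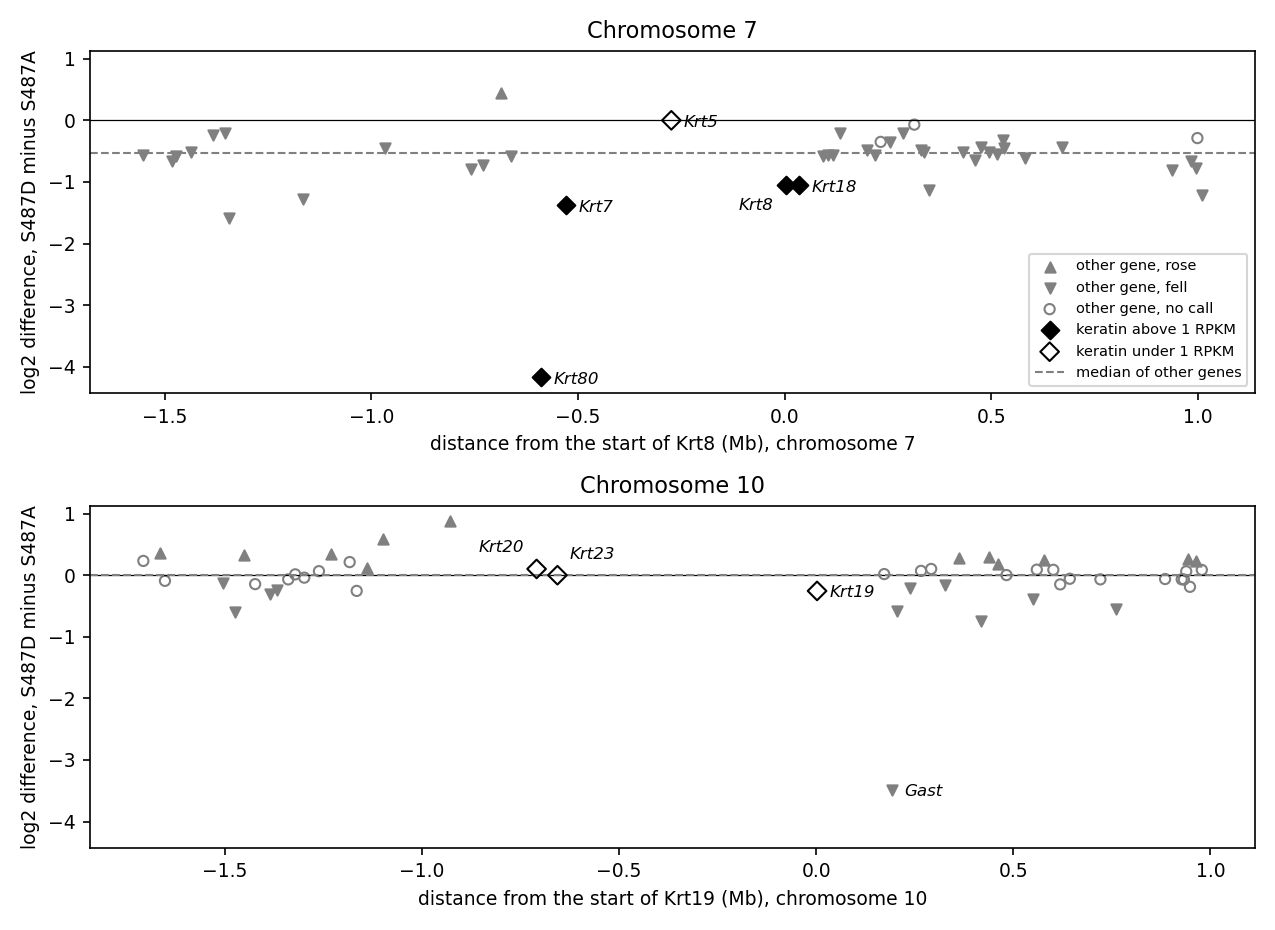
Log2 difference on log2(RPKM + 1), S487D minus S487A, of tested genes around the keratins of chromosome 7 and chromosome 10, by distance in Mb from the lower end of the Krt8 row or the Krt19 row; diamonds are keratins (open where under 1 RPKM), triangles are neighbours that rose or fell, open circles neighbours with no call, and the dashed line is the neighbours' median. The chromosome 7 neighbours lie almost all below 0 with a median of -0.54 and Krt80 far below them at -4.17, while the chromosome 10 neighbours scatter around 0.

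On chromosome 10 the neighbours of Krt19, Krt20 and Krt23 were called at shares near those of all genes. Of 99 rows within 1 Mb of that span, 47 were tested, 12 rose, 11 fell and 24 were not called, with a median log2 difference of 0.00; of all genes tested, 20.1% rose and 24.3% fell, with a median of -0.01. Among those that fell, Gast, the gastrin gene, averaged 8.14 ± 0.558 RPKM in S487D and 102 ± 4.97 RPKM in S487A (log2 difference -3.49, limma adjusted p = 4.18e-10). The others named among the fallen were Ttc25 (-0.75), a gene of motile cilia, Hap1 (-0.58), a huntingtin-associated trafficking protein, and Stat3 (-0.55), a cytokine-activated transcription factor. Among those that rose were Smarce1, a chromatin remodelling subunit and the nearest tested gene beyond Krt20 (log2 difference 0.88), Psmd3, a proteasome subunit (0.33), Acly, the enzyme that makes cytosolic acetyl-CoA (0.28), and Rab5c, an early endosome GTPase (0.24). The call of Acly was lost under quantile normalization (adjusted p = 0.279, against a range of 5.08e-10 to 0.279 over its 13 alternatives). Eif1, a translation initiation factor and the nearest tested gene beyond Krt19, averaged 191 ± 8.47 RPKM in S487D and 188 ± 16.2 RPKM in S487A, with overlapping groups and an adjusted p of 0.834 (limma). Elsewhere on chromosome 10, 220 of 1020 genes rose and 263 fell, with a median of -0.01.

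Keratin filaments attach to desmosomes, and 20 desmosome and cytolinker genes were looked up in the table. Of these, 11 were tested, of which 1 rose, 6 fell and 4 were not called, while of all genes tested, 20.1% rose and 24.3% fell. Their median log2 difference was -0.17, against -0.01 over all genes. The 9 genes not tested reached at most 0.344 RPKM. One of them was Dsp, the desmoplakin gene, with 3, 0 and 2 reads in S487D and 2, 1 and 3 reads in S487A, named after its values were seen. Ppl, the desmosomal plakin periplakin that binds keratin 8, was read at 15.7, 16.8 and 15.9 RPKM in S487D and 27.8, 27.2 and 26.2 RPKM in S487A, without overlap (log2 difference -0.71, SE 0.049, limma adjusted p = 3.53e-06). Dsc2, a desmosomal cadherin, averaged 14.2 ± 1.10 RPKM in S487D and 19.8 ± 0.815 RPKM in S487A (log2 difference -0.46). Pkp2, a desmosomal plaque protein, differed by -0.49 and its row overlaps another, and Plec, the cytolinker plectin, differed by -0.31. Pkp4, a plakophilin relative of adherens junctions, rose, at 5.88 ± 0.223 RPKM in S487D and 4.95 ± 0.230 RPKM in S487A (log2 difference 0.21, limma adjusted p = 0.0278). The Pkp4 call was lost without a filter (adjusted p = 0.0570), without S487D library 1 (0.0803) or 3 (0.0819) and without S487A library 1 (0.0748) or 2 (0.0680), and its adjusted p ran from 0.00215 to 0.0819 over 13 alternatives. Dsg2, the desmosomal cadherin of simple epithelia and the partner of Dsc2, averaged 43.3 RPKM in both groups and was not called; it was added after its values were seen.

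Among 16 other intermediate filament genes, 9 were tested, 5 rose, 2 fell and 2 were not called, while of all genes tested, 20.1% rose and 24.3% fell. Their median log2 difference was 0.14, against -0.01 over all genes. The nuclear lamina genes Lmnb1 and Lmna rose, with Lmnb1 at 101 ± 1.91 RPKM in S487D and 78.5 ± 3.29 RPKM in S487A (log2 difference 0.36) and Lmna at 110 ± 1.68 RPKM in S487D and 88.8 ± 3.65 RPKM in S487A (0.31). The neurofilament gene Nefh (0.38) and Ina, which encodes internexin (0.18, in a row that overlaps another), rose as well. Prph, the neuronal filament peripherin, was the most abundant of the 9 and fell, at 490, 475 and 488 RPKM in S487D and 726, 743 and 749 RPKM in S487A, without overlap (log2 difference -0.61, SE 0.036, limma adjusted p = 1.57e-06). Prph lies on chromosome 7 at 140741633 to 140746197, the chromosome of the lowered keratin neighbourhood but outside the window of 1 Mb around it. Vim, the vimentin gene of mesenchymal cells, reached the level for testing only through S487A and was called as fallen, at 0.495 ± 0.262 RPKM in S487D and 1.41 ± 0.257 RPKM in S487A (log2 difference -0.70). The mesenchymal markers, of which Col3a1 and Pdgfrb were at 0, had sums of 0.887 to 1.03 RPKM in S487D and 0.946 to 1.20 RPKM in S487A beside this. Most of each sum was Pdgfra, whose groups overlapped.

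Among epithelial transcription and splicing factors, 10 of 18 were tested, 2 rose, 4 fell and 4 were not called, while of all genes tested, 20.1% rose and 24.3% fell. Their median log2 difference was -0.14, against -0.01 over all genes. Elf3, an ETS factor of simple epithelia, fell, at 58.1, 56.0 and 57.4 RPKM in S487D and 87.7, 90.4 and 89.6 RPKM in S487A, without overlap (log2 difference -0.63, SE 0.037, limma adjusted p = 1.53e-06). Sp1, a factor that binds GC boxes, fell by 0.52 on the log2 scale and is itself one of the chromosome 7 neighbours. Grhl1 (-0.25), a grainyhead-like factor of desmosomal cadherin genes, and Ets2 (-0.16) also fell, the call of Ets2 being lost under median centring (-0.10, adjusted p = 0.0777, against a range of 0.0107 to 0.0777 over 13 alternatives). Klf5, a factor of proliferating epithelium, and Esrp1, an epithelial splicing regulator, rose, with log2 differences of 0.35 (limma adjusted p = 0.0230) and 0.12 (0.0260). The Klf5 call was lost without S487D library 2 (adjusted p = 0.0739) or 3 (0.0781), without S487A library 2 (0.0737) and with no filter (0.0536), over a range of 0.00570 to 0.0781. The Esrp1 call was lost with the replicate number as a block (adjusted p = 0.0535), without S487D library 1 (0.0508), 2 (0.0683) or 3 (0.0738), and without S487A library 1 (0.0640) or 2 (0.0569), over a range of 0.00318 to 0.0738.

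Of 14 duct genes other than keratins, 5 were tested, and of these 2 rose and 3 fell, while of all genes tested, 20.1% rose and 24.3% fell. Their median log2 difference was -0.17, against -0.01 over all genes. Anxa2, the annexin A2 gene, rose, at 18.2, 17.6 and 16.2 RPKM in S487D and 8.64, 9.50 and 9.67 RPKM in S487A, without overlap (log2 difference 0.84, SE 0.065, limma adjusted p = 7.80e-06). Car2, a carbonic anhydrase, also rose (0.63). Muc1, an apical mucin, reached the level for testing only through S487A and was called as fallen, at 0.530 ± 0.181 RPKM in S487D and 1.44 ± 0.0851 RPKM in S487A (log2 difference -0.68). Also fallen were the bicarbonate transporter Slc4a4 (-0.39, in a row that overlaps another) and the epithelial adhesion molecule Epcam (-0.17). Krt7 and Krt80 were thus lower in S487D libraries in which duct markers summed to at most 1.73 RPKM, against at most 2.67 RPKM in S487A, and the part of any duct-like cells in these differences was not tested.

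**Figure D5:**
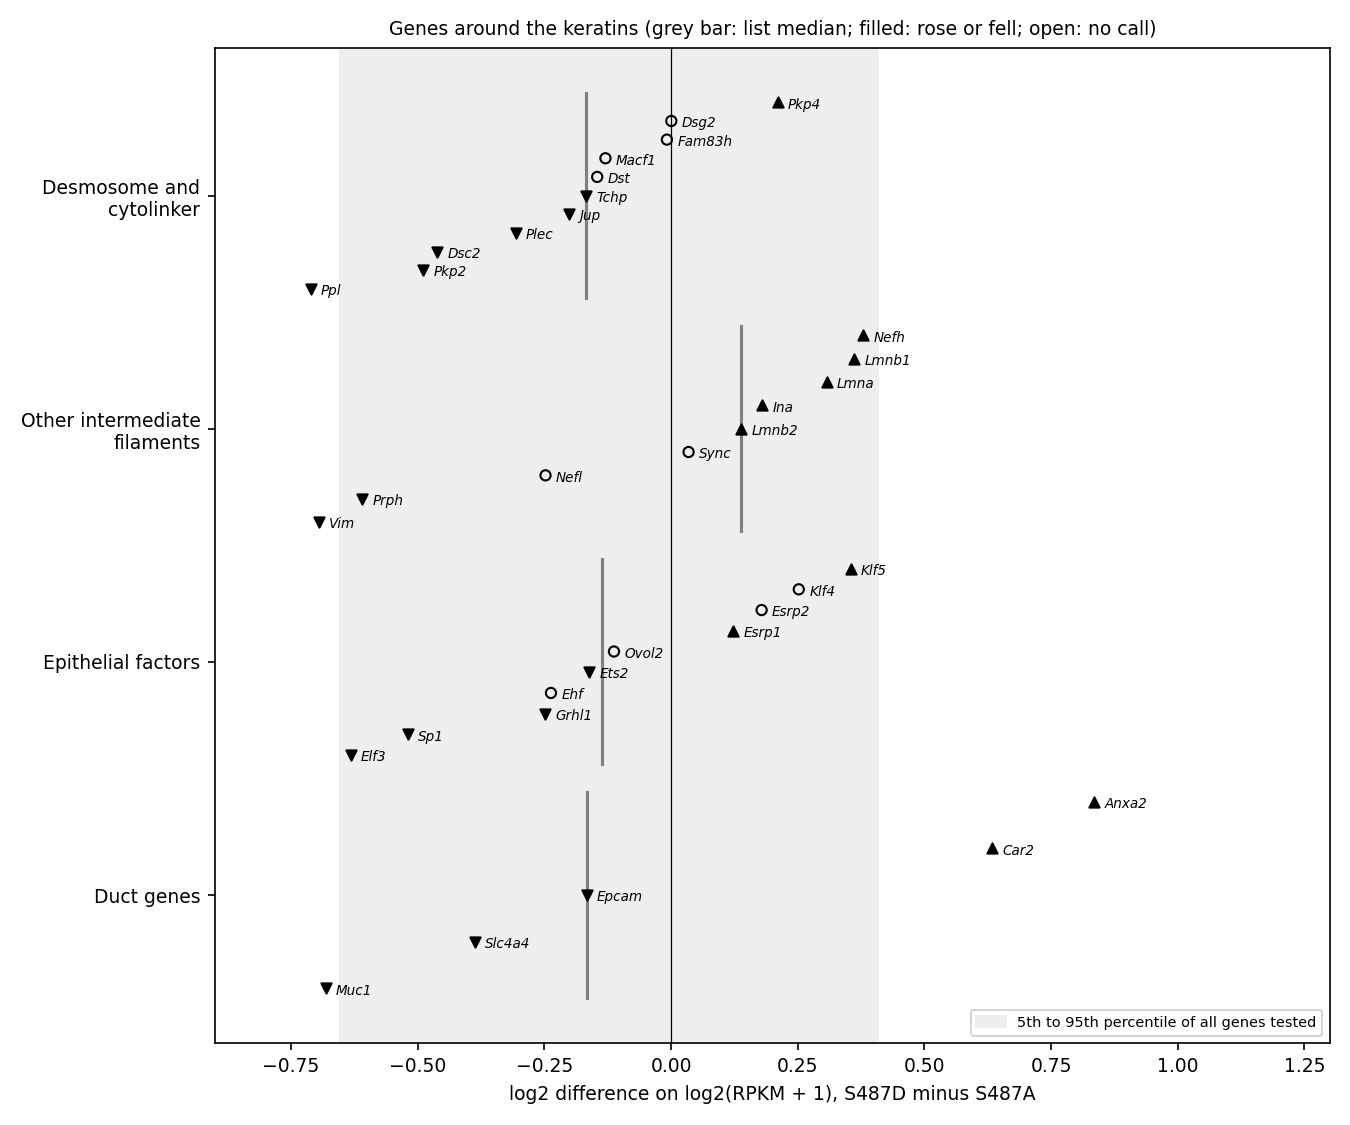
Log2 difference on log2(RPKM + 1), S487D minus S487A, of the tested genes of 4 lists; filled triangles rose or fell in limma at an adjusted p under 0.05, open circles were not called, the grey bar is each list's median and the shaded band covers the 5th to 95th percentile of all genes (-0.65 to 0.41). Ppl, Vim and Muc1 lie just below the band, and Anxa2 and Car2 above it.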

How the data were processed

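Messenger RNA of 6 libraries of transduced INS-1 cells (3 S487D, 3 S487A) was sequenced, with groups and replicate numbers taken from the sample titles. The authors deposited RPKM per gene with rn6 position, strand and length, per the file headers. The submitters' processing notes name TopHat2 2.0.13, bcl2fastq 2.17 and cutadapt, and the rn6 build. The read counter with its annotation was not given in the sources used here. Per the labels' protocols, a TruSeq RNA kit was used, which does not mark strand. RPKM times length gave whole reads (within 0.05) for 100% of values up to 2000 reads, so reads and depth could be worked out. Floors of 3 reads cover counting error only. Within each group the libraries differed beyond sampling noise. Each was entered as 1 replicate, although this spread may be technical and does not show separate cultures.

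The 12527 genes that reached 1 RPKM in 3 or more libraries entered a limma fit (version 3.58.1, R 4.3.3) on log2(RPKM + 1), with an intensity trend and no term beside the group. Its two-sided p-values were adjusted by Benjamini-Hochberg over all genes, with a threshold of 0.05. "Rose" and "fell" mean past that threshold. Fold changes of low genes are understated on this scale. The fit was also run on simulated data. The simulated spread between libraries was fixed and not taken from these libraries, so nothing is read from that run about the calls here. The 8 keratins and the gene lists were chosen with earlier results of these data known. The genes named are the 8 keratins and Men1, from each list up to 4 called genes in each direction with the smallest p, the tested genes nearest to each keratin span, and the 3 genes most like Krt8 and Krt18; rows with no proper symbol were counted and not named. Alternatives were median centring, quantile normalization, a pseudocount of 0.1, a filter at 5 RPKM or none, a replicate block, limma voom on recovered reads, and each library left out. Tables and figures were made with Python 3.11.15, numpy 2.4.6 and pandas 2.3.3.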

Additional observations from a re-analysis of the deposited data

How the results depend on the processing

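Krt7, Krt8, Krt18 and Krt80 were lower in S487D without overlap under each of the 13 alternatives, with log2 differences from -1.45 to -1.32 for Krt7, -1.15 to -0.99 for Krt8, -1.10 to -0.997 for Krt18 and -4.57 to -4.12 for Krt80. Only median centring, quantile normalization and voom could have made these groups overlap. The pseudocount, the filters, the replicate block and leaving a library out keep the order of the values, so nothing is read from the lack of overlap there. Krt8 stood at -1.15 under quantile normalization and -0.99 under median centring, Krt7 at -1.45 and -1.32, and Krt80 at -4.57 with a pseudocount of 0.1 and with voom. The count of keratins lower without overlap was 4 to 5 when libraries were left out. Without a filter on low values 1 other keratin was called, against 0; at 5 RPKM none was left to test. At that filter 3 duct genes were called, against 5, since fewer genes were tested. Called genes of the other lists stayed within 1.5 times, at 6 to 9 for desmosome genes, 6 to 7 for other intermediate filaments, 4 to 8 for epithelial factors, 28 to 39 for chromosome 7 neighbours and 21 to 24 for chromosome 10 neighbours. The median of the epithelial factors changed sign without a filter (0.01), and that of the chromosome 10 neighbours, near 0, ran from -0.05 to 0.06. Over all genes 4578 to 6195 were called, against 5564, and 45.3% of calls were upward as deposited, 55.4% under quantile normalization, 58.9% under median centring and 51.1% with voom. Of 35 called and named genes, 30 kept their call under every alternative in which they were tested. The replicate numbers did not pair the libraries: deviations of libraries with the same number correlated at 0.0035, -0.060 and 0.010. With the replicate block 5335 genes were called; Esrp1 was the only named gene whose call it ended. With 3 libraries a group and at most 7 reads for Krt19, depth limits what can be said of the chromosome 10 keratins.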
